A study of Mus musculus with 15 samples.

Results

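The genes described here are 9 core components of transforming growth factor beta (TGF-beta) signaling, namely the ligands *Tgfb1*, *Tgfb2* and *Tgfb3*, the receptors *Tgfbr1* and *Tgfbr2*, and the SMAD genes *Smad2*, *Smad3*, *Smad4* and *Smad7*. They were chosen by gene symbol, with earlier results of these data known, and all 9 were found among the 18279 genes of the expression table. RNA sequencing had been performed on 15 subcutaneous tumors of Renca, a murine renal cell carcinoma line of BALB/c origin, with 5 tumors in each of 3 groups. The control group (tumors 1 to 5) is labelled as parental Renca cells by sample, while the series as a whole calls it a control knockout. The other groups grew from *Pbrm1* knockout clone 4 (tumors 6 to 10) and *Pbrm1* knockout clone 18 (tumors 11 to 15), each derived from 1 clone made by transient Cas9 expression with a repair plasmid carrying puromycin resistance. *Pbrm1* encodes a subunit of the PBAF form of the SWI/SNF chromatin remodeling complex, and the comparison asks how tumors without it differ from control tumors. All cells were injected in Matrigel into the backs of female BALB/c mice, aged 4 to 6 weeks at purchase. Mice were left untreated or given PD-1 antibody, and the labels do not say which applied to a given tumor. Since each group is 1 cell line, an effect of the knockout and a difference between lines cannot be told apart, and p-values measure the spread between tumors of those lines.

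The TGF-beta ligands are secreted in a latent form and signal through a receptor complex in which TGFBR2 activates TGFBR1. The activated TGFBR1 phosphorylates SMAD2 and SMAD3, which join SMAD4 and enter the nucleus to regulate transcription, while SMAD7 is induced by the pathway and inhibits it. In tumors the ligands are made by cancer cells as well as by stromal and immune cells, and are known for restraining T cells and for activating fibroblasts.

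Reads on genes per tumor ranged from 32924414 to 49099168, with a median of 40860659. *Pbrm1* transcript remained detectable in the knockout tumors, with a normalized read count of 2795 ± 205 (SD, n = 10) against 9012 ± 956 (n = 5) in control tumors, which is 31.0% of control, and the values of the groups did not overlap. Markers of renal epithelium (*Krt8*, *Cdh16*, *Pax8* and 5 others) were present in every group, with summed normalized counts of 114683 to 138441 in control, 98412 to 128407 in clone 4 and 104297 to 120416 in clone 18 tumors. Tumors 10 and 13 lay farthest from the other tumors of their own clones over all genes, with a root mean square log2 distance of 0.62 and 0.56. Among control tumors, tumors 2 and 1 lay farthest by that measure (0.46 and 0.45), and tumor 1 had the highest summed T cell markers, 1445 against 454 to 843 in the others. Fewer cells of a type and less RNA per cell cannot be told apart in such bulk samples.

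Promoter sequence is shown for *Tgfb2* and *Smad3*, whose lower levels carry the main results below. It comes from RefSeq (GRCm38.p6), and windows of 5 of the 9 genes (6 windows) were searched. The other members were not searched, which does not show that they lack a window there. Each sequence covers the 250 bases before the annotated start, 5′ to 3′ on the strand of the gene. The *Tgfb2* sequence lies at chr1:186705990-186706239 and the *Smad3* sequence at chr9:63757995-63758244, both on the minus strand. Capitals mark an E-box (CACGTG) and a TATA box (TATAAA) in the first, and GC boxes (GGGCGG) in the second.
Tgfb2: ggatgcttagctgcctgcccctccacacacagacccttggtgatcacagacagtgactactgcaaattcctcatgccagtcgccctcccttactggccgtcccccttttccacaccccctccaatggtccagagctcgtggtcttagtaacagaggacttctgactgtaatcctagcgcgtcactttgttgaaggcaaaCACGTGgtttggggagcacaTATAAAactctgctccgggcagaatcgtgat
Smad3: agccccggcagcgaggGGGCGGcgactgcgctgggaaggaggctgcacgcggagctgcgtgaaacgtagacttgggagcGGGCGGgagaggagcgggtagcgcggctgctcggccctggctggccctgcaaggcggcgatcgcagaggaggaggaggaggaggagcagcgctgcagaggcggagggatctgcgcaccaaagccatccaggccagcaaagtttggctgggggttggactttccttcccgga

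The pair differed in composition, with a GC content of 53.6% for *Tgfb2* and 69.2% for *Smad3*. In the *Tgfb2* window the E-box began 51 bases and the TATA box 31 bases before the start, and there was no GGGCGG. The *Smad3* window held 2 GC boxes and neither of the other motifs. CAGAC, the letters of a SMAD-binding element, occurred at 2 positions before *Tgfb2* and at none before *Smad3*, and the palindrome GTCTAGAC was in neither. Searched on both strands in 32851 promoter windows of the same length, CAGAC was found in 42.2%, GGGCGG in 32.7%, TATAAA in 12.4%, CACGTG in 6.02%, the cyclic AMP response element TGACGTCA (absent from both) in 1.55% and GTCTAGAC in 0.167%. The letters for the E-box and the TATA box were added to the search after the sequence had been seen.

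Considering both clones together, 2 of the 9 genes passed the threshold against control (limma, adjusted p under 0.05 over 18250 genes), *Smad3* and *Smad4*, both lower. Of all genes tested 22.1% passed, 9.23% as higher and 12.9% as lower. The median log2 difference of the 9 genes was -0.24, beside -0.02 for all genes. None of the 9 separated the 10 knockout tumors fully from the 5 control tumors, which 7.98% of all genes did. The clones were therefore also compared with control one at a time and with each other. The 2 control comparisons share the same 5 control tumors.

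*Tgfb2*, at chr1:186622792-186705989 (ENSMUSG00000039239), was the member with the largest log2 difference, being lower in clone 18 than in either other group. Its normalized counts were 829.8, 940.6, 869.8, 772 and 707.3 in control tumors 1 to 5. They were 678.9, 1005.3, 1103.1, 657.6 and 894.5 in tumors 6 to 10 of clone 4. In tumors 11 to 15 of clone 18 they were 391.9, 356.8, 363.9, 395.9 and 344.8. Every clone 18 tumor lay below every other tumor, whereas clone 4 tumors lay on both sides of the control range. The coefficient of variation was 6.02% in clone 18, 10.9% in control and 22.7% in clone 4 tumors. The clone 18 mean of 371 ± 22.3 (SD, n = 5) was 45.0% of the control mean of 824 ± 89.5 and 42.7% of the clone 4 mean of 868 ± 197. The log2 difference of clone 18 was -1.15 (SE 0.13, limma adjusted p = 9.57e-06) against control and -1.20 (SE 0.13, adjusted p = 2.49e-05) against clone 4. An exact two-sided permutation test gave p = 0.00794 for each, the smallest value that 5 against 5 tumors allow. The difference of clone 4 from control was 0.05, with a 95% confidence interval from -0.22 to 0.33 (limma adjusted p = 0.845). Over both clones the difference of -0.55 (95% confidence interval -1.11 to 0.02) did not pass (limma adjusted p = 0.165).

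**Figure D1:**
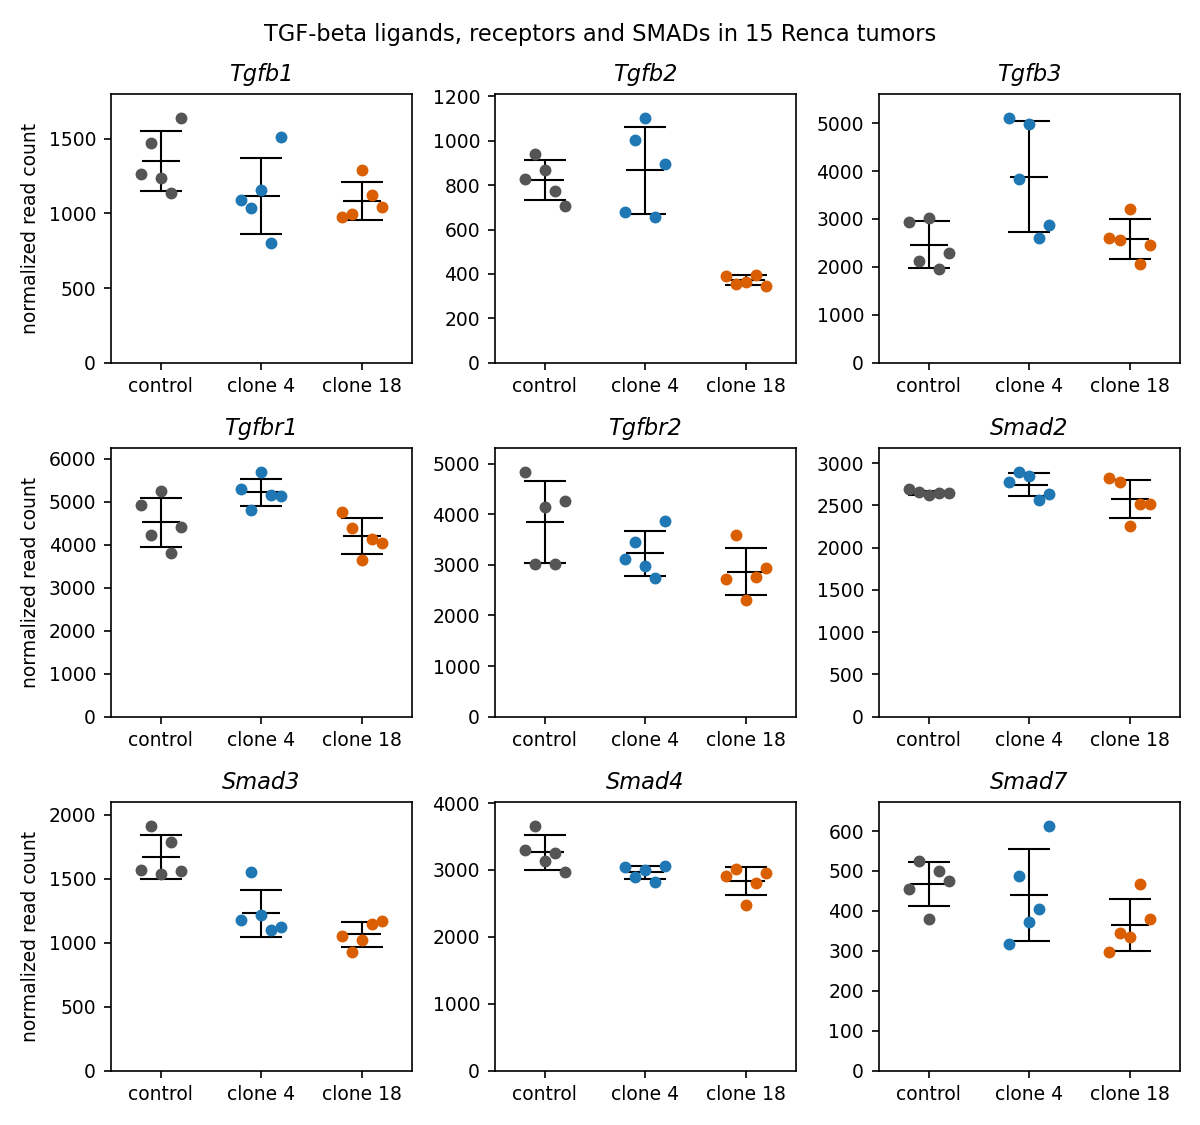
Normalized read count (vertical axes, starting at 0) of the 9 TGF-beta genes in each of 15 tumors, by group; points are tumors, and black bars give the mean ± SD of 5 tumors. *Tgfb2* of clone 18 lies between 344.8 and 395.9, below all other tumors, and *Smad3* is lower than every control value in 9 of 10 knockout tumors.

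*Tgfb3* (chr12:86056745-86079041, ENSMUSG00000021253) was higher in clone 4 on average, with a wide spread. Control tumors 1 to 5 had normalized counts of 2936.1, 2128.8, 3018.4, 1959.8 and 2282.8. Clone 4 tumors 6 to 10 had 5107.1, 3843.3, 4990.3, 2602.1 and 2880.7. Clone 18 tumors 11 to 15 had 2601.3, 2566.6, 3209.6, 2051.8 and 2454. Tumors 6, 7 and 8 exceeded all control tumors, while tumors 9 and 10 and 4 of 5 clone 18 tumors lay within the control range. The clone 4 mean of 3885 ± 1159 was 158% of the control mean of 2465 ± 482, a log2 difference of 0.62 (SE 0.18, limma adjusted p = 0.0240). Clone 18 differed from control by 0.07 (95% confidence interval -0.31 to 0.45, limma adjusted p = 0.820). The difference between the clones, -0.55 for clone 18 minus clone 4, did not pass with all tumors (SE 0.18, limma adjusted p = 0.0937) and passed without tumor 9 (adjusted p = 0.0341). The clone 4 call was lost without any 1 of tumors 2, 4, 5, 6 or 8 (limma adjusted p = 0.0511 to 0.0704). It was also lost under limma without trend (adjusted p = 0.0520) and under a two-sample test adjusted over all genes tested (adjusted p = 0.120).

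Summed fibroblast markers (*Col1a1*, *Pdgfra*, *Dcn* and 7 others) varied widely within clone 4, being 21888 in tumor 6, 108393 in tumor 7, 43282 in tumor 8, 65864 in tumor 9 and 197569 in tumor 10. Tumors 6 and 8, with the highest *Tgfb3*, had the lowest sums of the 5 and of all tumors. The part of this in the *Tgfb3* result was not tested. *Ttll5*, on the opposite strand, overlaps *Tgfb3*, and the strand setting of the read counting is not given in the sources used here, so their reads cannot be told apart with certainty. *Ttll5*, named here for this overlap, differed from control by -0.25 in clone 4 (SE 0.08, limma adjusted p = 0.0479). The part of the overlap in the *Tgfb3* result was not tested.

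*Tgfb1* (chr7:25687002-25705077, ENSMUSG00000002603), the ligand most studied in immune regulation, had a lower mean in both clones without reaching the threshold. In control tumors the lowest, median and highest normalized counts were 1139, 1264 and 1640. They were 802, 1090 and 1509 in clone 4 and 974, 1041 and 1291 in clone 18. The groups overlapped, with 7 of 10 knockout tumors below every control value, and tumor 10 as the high value of clone 4. The log2 difference over both clones was -0.30 (95% confidence interval -0.55 to -0.05, limma adjusted p = 0.0778). It was -0.35 without tumor 10 (limma adjusted p = 0.0199) and -0.23 without tumor 5 (adjusted p = 0.225). Against control it was -0.29 for clone 4 (limma adjusted p = 0.173) and -0.31 for clone 18 (adjusted p = 0.112). The clone 4 difference was -0.40 without tumor 10 (limma adjusted p = 0.0321) and -0.18 without tumor 9 (adjusted p = 0.411).

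Per kilobase of exon, *Tgfb3* was the most abundant of the 3 ligand transcripts in every group and *Tgfb2* the least. In normalized counts per kilobase, the control means were 729 for *Tgfb3*, 268 for *Tgfb1* and 142 for *Tgfb2*. In clone 4 they were 1148, 222 and 150, and in clone 18 they were 762, 215 and 64.0. *Tgfb2* made up 12.6% ± 1.84 (SD, n = 5) of the ligand transcripts in control, 10.1% ± 2.21 in clone 4 and 6.24% ± 0.97 in clone 18 tumors. The 3 ligands together came to 1139 ± 142 per kilobase in control, 1520 ± 361 in clone 4 and 1041 ± 137 in clone 18 tumors. Clone 18 thus carried a ligand total overlapping that of control tumors with a smaller share of *Tgfb2*. Length was taken over all annotated exons of a gene together, not over the transcripts present, and these shares are given as a description.

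**Figure D2:**
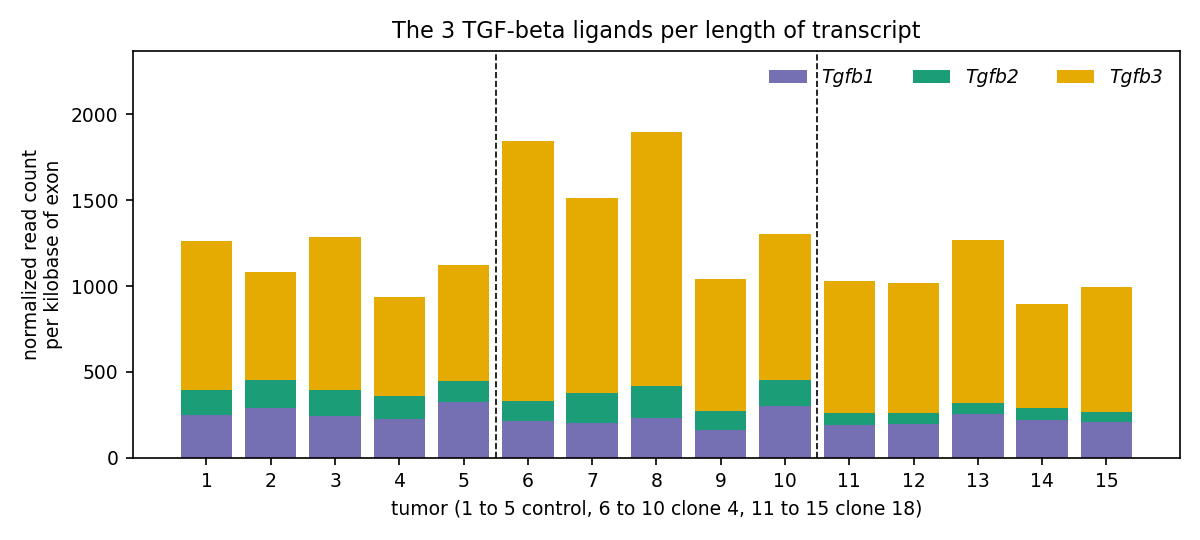
Normalized read count per kilobase of exon (vertical axis) of the 3 ligand transcripts, stacked for each of 15 tumors; dashed lines separate control, clone 4 and clone 18. *Tgfb3* forms most of every bar, and the *Tgfb2* layer is thinnest in tumors 11 to 15, at 6.24% of the total on average.

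*Tgfbr1* (chr4:47353222-47414931, ENSMUSG00000007613), the signaling receptor kinase, separated the clones from each other. Clone 4 tumors had normalized counts of 5295.1, 4816.1, 5693.6, 5163.3 and 5137.6, and clone 18 tumors had 4762.7, 4401.1, 3653.3, 4129.7 and 4051.5. Control tumors had 4913.6, 4225, 5258.8, 3815.4 and 4409. All clone 18 tumors lay below all clone 4 tumors, although by a small margin, and the control tumors overlapped both. The log2 difference of clone 18 from clone 4 was -0.32 (SE 0.09, limma adjusted p = 0.0410). The call was lost without any 1 of tumors 5, 6, 8, 9, 10, 13, 14 or 15 (limma adjusted p = 0.0544 to 0.103), and under quantile normalization, limma without trend and the two-sample test (adjusted p = 0.0547 to 0.0838). Against control, the difference was 0.21 in clone 4 (95% confidence interval 0.03 to 0.39, limma adjusted p = 0.0993) and -0.10 in clone 18 (-0.28 to 0.08, adjusted p = 0.415). The clone 4 difference was 0.27 without tumor 3 (limma adjusted p = 0.0397) and 0.15 without tumor 4 (adjusted p = 0.242).

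*Tgfbr2* (chr9:116084293-116175360, ENSMUSG00000032440), the ligand-binding receptor, was lower in clone 18. The normalized counts were 4834.7, 3012.2, 4142.3, 3008.6 and 4267.3 in control tumors and 2716.6, 3585.4, 2314.3, 2758.5 and 2930.9 in clone 18 tumors. Clone 4 tumors had 3115.7, 3444.9, 2979.1, 2731.8 and 3867.7. Control tumors fell into a lower pair (2 and 4) and a higher 3, and 4 of 5 clone 18 tumors lay below all of them. The log2 difference was -0.42 in clone 18 (SE 0.14, limma adjusted p = 0.0357) and -0.24 in clone 4 (95% confidence interval -0.53 to 0.05, adjusted p = 0.275). The clone 18 call was lost without any 1 of tumors 1, 3, 5, 11, 13, 14 or 15 (limma adjusted p = 0.0515 to 0.0976), and under upper quartile scaling, quantile normalization, limma without trend and the two-sample test (adjusted p = 0.0534 to 0.130). The difference over both clones, -0.33, did not pass with all tumors (limma adjusted p = 0.0652), passed without tumor 2, 4 or 10 (adjusted p = 0.0320 to 0.0324), and was -0.24 without tumor 1 (adjusted p = 0.208).

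*Smad3* (chr9:63646767-63757994, ENSMUSG00000032402) was the one member that passed the threshold in all 3 comparisons with control, and it was lower in each. Its normalized counts were 1564.4, 1912.1, 1533.8, 1785 and 1556.4 in control tumors. In clone 4 they were 1174.5, 1549, 1212.5, 1095.7 and 1125.1, and in clone 18 they were 1050.1, 930.2, 1024.9, 1147.7 and 1168.8. Apart from tumor 7, with 1549 just above the lowest control tumor, every knockout tumor lay below every control tumor. The means were 1670 ± 169 in control, 1231 ± 183 in clone 4 (73.7% of control) and 1064 ± 97.0 in clone 18 (63.7% of control). The log2 difference over both clones was -0.55 (SE 0.09, limma adjusted p = 0.000443, exact permutation p = 0.000666). It was -0.45 in clone 4 (SE 0.10, limma adjusted p = 0.00422) and -0.65 in clone 18 (SE 0.10, adjusted p = 0.000147). The clones themselves differed by -0.20 for clone 18 minus clone 4 (95% confidence interval -0.41 to 0.00, limma adjusted p = 0.275).

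The other receptor-activated SMAD gene, *Smad2* (chr18:76241580-76310963, ENSMUSG00000024563), showed no difference past the threshold. Control tumors ranged from 2621 to 2689 in normalized count, clone 4 from 2566 to 2896 and clone 18 from 2255 to 2826. Its log2 difference over both clones was 0.00, with a 95% confidence interval from -0.12 to 0.12 (limma adjusted p = 0.992). Per kilobase of exon, *Smad3* made up 49.8% ± 2.47 (SD, n = 5) of the control tumors' *Smad2* and *Smad3* transcripts, and 41.4% ± 2.51 and 39.6% ± 3.51 of those in clones 4 and 18. Every knockout tumor had a lower *Smad3* share, at most 45.9%, than the lowest control tumor at 48.0%. That ordering follows from the lower *Smad3* values and is given as a description.

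*Smad4* (chr18:73639009-73703780, ENSMUSG00000024515), the common partner of the receptor-activated SMADs, was slightly lower in knockout tumors. Control tumors had normalized counts of 3301.7, 3656.9, 3129.7, 3247.3 and 2969. Clone 4 tumors had 3046.3, 2893.5, 3000, 2825.1 and 3052.2, and clone 18 tumors had 2904.3, 3013.2, 2477.9, 2811.6 and 2956.6. The ranges overlapped, with 6 of 10 knockout tumors below the lowest control tumor. The log2 difference was -0.17 over both clones (SE 0.06, limma adjusted p = 0.0423, exact permutation p = 0.00233) and -0.20 in clone 18 (SE 0.06, limma adjusted p = 0.0301). In clone 4 it was -0.14 (95% confidence interval -0.27 to 0.00, limma adjusted p = 0.175). The call over both clones was lost without any 1 of tumors 1, 2, 3, 4, 7, 9, 11, 14 or 15 (limma adjusted p = 0.0501 to 0.144), and that of clone 18 without tumor 1, 2, 13 or 14 (adjusted p = 0.0519 to 0.0817). Upper quartile scaling, quantile normalization and edgeR also lost both calls, limma without trend that over both clones, and the two-sample test that of clone 18 (adjusted p = 0.0550 to 0.0650 over both clones and 0.0537 to 0.0816 in clone 18).

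*Smad7* (chr18:75367529-75395935, ENSMUSG00000025880), the inhibitory SMAD that the pathway itself induces, had the lowest mean of the members per kilobase of exon over all 15 tumors. In clone 18 the mean of *Tgfb2* was lower, at 64.0 per kilobase against 80.7 for *Smad7*. In normalized counts without scaling by length, the *Smad7* values were as follows. Its mean normalized count was 468 ± 55.3 in control, 439 ± 115 in clone 4 and 365 ± 64.5 in clone 18 tumors (SD, n = 5 each). The log2 difference was -0.24 over both clones (95% confidence interval -0.55 to 0.06, limma adjusted p = 0.260) and -0.37 in clone 18 (-0.70 to -0.03, adjusted p = 0.108). In clone 4 it was -0.12 (-0.46 to 0.22, limma adjusted p = 0.681), and it was -0.25 without tumor 10 (adjusted p = 0.271) and -0.014 without tumor 6 (adjusted p = 0.972). Tumor 10 held the highest value, 612.7, and tumor 11 the lowest, 297, so that the ranges of the groups overlapped.

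By clone, 2 of the 9 genes passed in clone 4 against control (*Tgfb3* higher, *Smad3* lower), where 16.8% of all genes tested passed, and none was without overlap, against 14% of all genes. In clone 18 against control, 4 passed (*Tgfb2*, *Tgfbr2*, *Smad3* and *Smad4*, all lower), where 24.7% of all genes passed. *Tgfb2* and *Smad3* did not overlap with control, as for 17.1% of all genes. Between the clones 2 passed (*Tgfb2* and *Tgfbr1*, lower in clone 18), where 4.62% of all genes passed, and the same 2 did not overlap, as for 5.52% of all genes. The median log2 difference of the 9 genes was -0.12 in clone 4, -0.31 in clone 18 and -0.20 for clone 18 minus clone 4, beside -0.01, -0.02 and -0.01 for all genes. Chromosome 1, which carries *Tgfb2*, had a median log2 difference between clone 18 and control of -0.02 over 1076 genes. Chromosome 9, which carries *Smad3* and *Tgfbr2*, had 0.02 over 885 genes, beside -0.02 for all genes. A median over a whole chromosome does not show a change in part of it, and copy number was not tested.

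**Figure D3:**
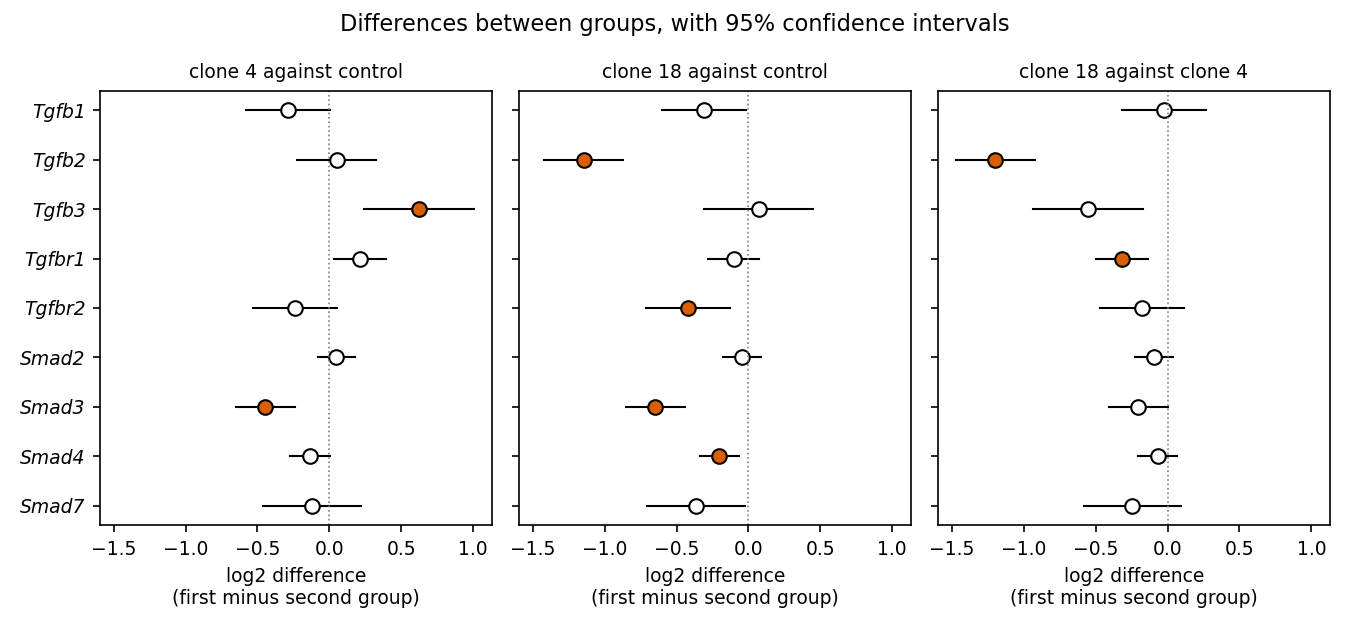
Log2 difference (horizontal axes) of the 9 TGF-beta genes between groups, with 95% confidence intervals from the limma fit of 3 groups; filled points had an adjusted p under 0.05. *Smad3* was lower in both clones (-0.45 and -0.65), and *Tgfb2* was lower in clone 18 against both control (-1.15) and clone 4 (-1.20).

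Macrophages are a known source of TGF-beta, and summed macrophage markers (*Csf1r*, *C1qa* and 8 others) ranged from 81492 to 110115 in control, 65318 to 81344 in clone 4 and 58506 to 78264 in clone 18 tumors. Every knockout sum was below every control sum, with 5 of 10 markers lower over both clones, and 8 lower and 1 (*Cd68*) higher in clone 18. By group, *Smad3* was lower in both clones and *Tgfb2* in clone 18, as these sums were. No relation over single tumors was tested, nor was the part of macrophage markers in these results. Of the 10 fibroblast markers none passed in the limma comparisons, and their sums ranged from 56261 to 92997 in control, 21888 to 197569 in clone 4 and 69886 to 135219 in clone 18. Over both clones, where 12.9% of all genes tested were lower, 3 of 8 T cell markers (*Cd3d*, *Cd3g* and *Cd8a*) were lower. The median log2 difference of these 8 markers was -1.40, beside -0.02 for all genes. The T cell sums were 454 to 1445, 471 to 735 and 465 to 599 in the same order of groups. None of 8 endothelial markers passed over both clones, with sums of 7095 to 13841, 8561 to 14899 and 9356 to 11410. Among 6 neutrophil markers 2 were lower, with sums of 764 to 1778, 497 to 1984 and 555 to 758, and *Ly6g* was at 0 in all clone 18 tumors. Of 5 B cell markers 1 was lower (762 to 1004, 854 to 1286 and 683 to 946), and of 4 platelet markers 1 was higher (915 to 1150, 593 to 1499 and 793 to 1646), with *Gp9* at 0 in all clone 18 tumors. Skeletal muscle markers, none of which passed over both clones, reached sums of 196 in control, 1174 in clone 4 and 1895 in clone 18 tumors.

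The wider pathway was described through 4 lists with 76 genes in the table, of which 1 rose and 14 fell over both clones (19.7% passed, beside 22.1% of all genes). Without tumor 2 the 15 calls became 9. In the list of latency proteins, activators and coreceptors, 3 of 16 fell and none rose (median log2 difference -0.07). *Ltbp1*, which anchors latent TGF-beta in the matrix, dropped most, with normalized counts of 318, 546.1, 374.6, 155.8 and 270.7 in control tumors. In clone 4 it had 17.4, 28.7, 29.8, 26.2 and 75.7, and in clone 18 65.3, 55.4, 44.5, 65.2 and 28. Every knockout tumor lay below every control tumor, with a log2 difference of -2.93 (SE 0.34, limma adjusted p = 1.15e-05). *Acvrl1*, an endothelial TGF-beta family receptor also known as ALK1, fell by 0.93 on the log2 scale (SE 0.11, limma adjusted p = 1.51e-05), from 1092 ± 139 in control to 566 ± 134 in clone 4 and 584 ± 33.6 in clone 18. *Eng*, its coreceptor endoglin, fell by 0.48 (SE 0.09, limma adjusted p = 0.000877). Both were below all control tumors in 10 of 10 knockout tumors. The sums of endothelial markers overlapped among the groups, and their part in these results was not tested.

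In the list of SMAD cofactors and regulators, 5 of 19 genes fell and none rose (median log2 difference -0.08), where 22.1% of all genes passed. *Smad1*, which acts in the BMP branch, fell from 1726 ± 102 in control to 1397 ± 87.6 in clone 4 and 1411 ± 60.9 in clone 18 tumors, a log2 difference of -0.30 (SE 0.05, limma adjusted p = 0.000736). *Trim33*, a ubiquitin ligase that binds SMADs, differed by -0.28 (SE 0.08, limma adjusted p = 0.0253). *Ldlrad4* and *Pmepa1*, related inhibitors of receptor signaling to SMADs, differed by -0.27 (adjusted p = 0.0221 by limma) and -0.47 (adjusted p = 0.0499). The *Trim33* call was lost without tumor 2 (limma adjusted p = 0.0925) or 5 (0.0580), and that of *Ldlrad4* without tumor 1, 2 or 3 (adjusted p = 0.0503 to 0.0735). The *Pmepa1* call sits at the threshold and was lost under 8 of 10 other analyses. *Smad5*, also of the BMP branch and chosen after its value was seen, differed by -0.17 (limma adjusted p = 0.0413).

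Of 20 genes known to be induced by TGF-beta, 1 fell and none rose over both clones (median log2 difference -0.04), where 22.1% of all genes passed. That gene was *Tgfbi*, a matrix protein named for its induction by TGF-beta, with 9481 ± 1638 in control, 7711 ± 1228 in clone 4 and 6292 ± 948 in clone 18 tumors. Its log2 difference was -0.44 (SE 0.12, limma adjusted p = 0.0162), and the call was lost without tumor 1 (adjusted p = 0.0583) or tumor 3 (adjusted p = 0.0554). By clone, 3 of the 20 were lower and none higher in clone 18 (median 0.10), where 24.7% of all genes passed. In clone 4, 1 was lower and none higher (median -0.08), where 16.8% of all genes passed.

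In the list for the activin and BMP branch, 1 of 21 genes rose and 5 fell (median log2 difference -0.03), where 22.1% of all genes passed. The 5 include *Gdf15*, which was listed here as a ligand of the wider superfamily. *Id1*, a transcriptional target of BMP signaling, was 668 ± 84.6 in control, 977 ± 73.9 in clone 4 and 1186 ± 175 in clone 18 tumors. All 10 knockout tumors exceeded all control tumors (log2 difference 0.69, SE 0.11, limma adjusted p = 0.000155). *Gdf15*, a stress-induced ligand of the superfamily, fell in all 10 and by more in clone 4, with 4055 ± 356 in control, 1352 ± 241 in clone 4 and 2661 ± 522 in clone 18 tumors. Its log2 difference over both clones was -1.11 (SE 0.23, limma adjusted p = 0.00193), and clone 18 was 0.97 higher than clone 4 (SE 0.12, adjusted p = 0.000137). The BMP ligands *Bmp7*, *Bmp4* and *Bmp6* were low throughout, with control means of 120, 44.0 and 64.8, and fell, with log2 differences of -1.98, -1.54 and -1.40 (limma adjusted p = 0.0162, 0.0232 and 0.00256). The calls of *Bmp7* and *Bmp4* were lost without tumor 2 or tumor 4 (limma adjusted p = 0.0530 to 0.0829). *Acvr2a*, an activin receptor chosen after its value was seen, fell by 0.40 (SE 0.09, limma adjusted p = 0.00416).

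**Figure D4:**
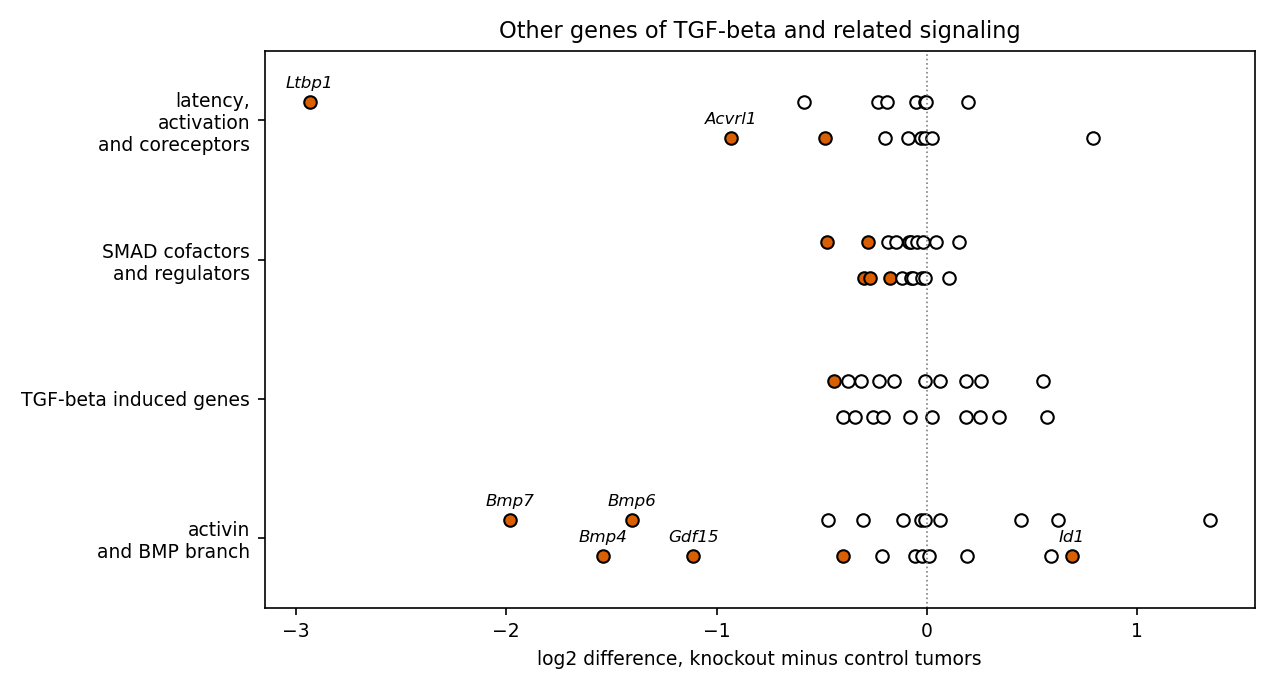
Log2 difference of knockout minus control tumors (horizontal axis) for each of 76 genes in 4 pathway lists; filled points had an adjusted p under 0.05 by limma, and names are given for those beyond 0.6. Filled points lie below 0 for 14 genes and above it for 1, *Id1*.

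Between the clones, 1 gene passed in each of the 4 pathway lists (of 16, 19, 20 and 21 genes), where 4.62% of all genes tested passed. These were *Gdf15*, described above, and *Itgb6*, *Cdkn2b* and *Smad6*, which were chosen after their values were seen. *Itgb6*, the chain of an integrin that activates latent TGF-beta, was 83.6 ± 27.0 in clone 4, against 31.6 ± 17.1 in control and 30.9 ± 3.57 in clone 18 tumors. The log2 difference of clone 18 minus clone 4 was -1.35 (SE 0.32, limma adjusted p = 0.0206). *Cdkn2b*, a cell cycle inhibitor induced by TGF-beta, was 1028 ± 84.2 in clone 4 against 1419 ± 111 in control and 1468 ± 140 in clone 18 tumors, with clone 18 higher by 0.51 (SE 0.08, limma adjusted p = 0.000930). *Smad6*, an inhibitory SMAD of the BMP branch, was also higher in clone 18 than in clone 4, by 0.39 (limma adjusted p = 0.0315).

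Finally, genes were ranked by how closely their order across the 15 tumors followed each ligand, as the mean absolute difference in rank, which had a median of 4.93 over 16493 genes. *Crim1*, a membrane protein that binds BMPs, was closest to *Tgfb2* with 1.07, and its mean normalized counts were 5586 in control, 5551 in clone 4 and 4242 in clone 18 tumors. *Csnk1g3* (1.60) and *Bmp1* (1.73) came next. The closest to *Tgfb3* were *Invs* (1.20), *Dhcr7* (1.33) and *Zdhhc7* (1.33), and to *Tgfb1* were *Hira* (1.53), *Capns1* (1.60) and *Jarid2* (1.60). This likeness is a description over tumors that share their groups.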

How the data were processed

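Per the labels and the study's methods, the authors aligned reads to the mouse genome (mm10) with TopHat2, counted reads per gene with HTSeq and normalized the counts with DESeq. The deposited values are these normalized counts, a signal per gene scaled by a size factor, for 15 tumors and 18279 genes. Values of up to 8000 were whole multiples of a step per tumor (100% within 0.1), which gave back reads per gene. In tumors 8 and 14 this step was within 1% of 1, so that it shows only in the higher values, and the reads of these 2 tumors are less certain. Genes at 0 in every tumor (29) were left out, leaving 18250.

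Log2(normalized count + 1) was tested with limma 3.58.1 (trend) in R 4.3.3, with Benjamini-Hochberg adjustment over all genes tested. A fit of 5 control against 10 knockout tumors followed the grouping of the study, and a fit of 3 groups gave the clones. A log2 difference on this scale understates the change of low genes. Exact permutation tests over tumors were two-sided. The alternatives included DESeq2 1.42.0 and edgeR 4.0.16, run on recovered reads. Others were pseudocounts of 0.1 and 5, a minimum mean of 10, upper quartile and quantile scaling, and limma without trend. A two-sample test and leaving out each tumor were also used. The study used a two-sample test on log2 values as well, but adjusted it across its own gene set. Here the adjustment was over all genes tested. Scripts were tested on simulated data.

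Besides markers, genes named were *Pbrm1*, the 9 members, *Ttll5* for its overlap with *Tgfb3*, and the 3 genes nearest each ligand in rank. From each of the 4 pathway lists came the 4 largest changes in each direction among genes that passed with a mean of at least 10. Other pathway genes are marked as chosen after their values were seen. Members, gene lists and markers were chosen with earlier results of these data known. Gene positions and exon lengths (all annotated exons of a gene together) are from GENCODE M21 (GRCm38). *Smad9*, *Inha*, *Nog*, *Gp1ba* and *Treml1* were not in the table.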

Additional observations from a re-analysis of the deposited data

Results flagged for a closer look

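A single tumor stood away from the rest of its group in 3 of the 69 sets of 5 values examined, and 3.45 would be reached by chance. *Smad3* was high in tumor 7 of clone 4 (normalized count 1549, the others 1095.7 to 1212.5). *Ltbp1* was high in tumor 10 of clone 4 (75.7, the others 17.4 to 29.8), and *Bmp4* in tumor 12 of clone 18 (24.6, the others 7.9 to 10.2).

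Among the members and the pathway genes named by rule, 3 genes passed the limma test of clone 18 minus clone 4, where 4.62% of all genes tested passed. These are differences between knockout lines, each derived from 1 clone. The log2 difference was -1.20 for *Tgfb2*, -0.32 for *Tgfbr1* and 0.97 for *Gdf15*.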

How the results depend on the processing

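*Smad3* in all 3 comparisons with control, and *Tgfb2* in clone 18 against control and against clone 4, passed under each of 25 alternatives, including every tumor left out. Over 900 member results under the alternatives, 814 kept their direction and side of the threshold, 54 lost and 13 gained a call, and 19 changed sign, the last being differences near 0.

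The count of 2 members past the threshold over both clones was 1 under upper quartile scaling, quantile normalization, limma without trend and edgeR (1 to 4 when leaving out 1 tumor, with 4 without tumor 10). In clone 4 the count was 1 under limma without trend and the two-sample test (1 to 3 when leaving out 1 tumor), and in clone 18 it was 2 under upper quartile scaling, quantile normalization and the two-sample test (2 to 4). Between the clones it was 1 under quantile normalization, limma without trend and the two-sample test (1 to 2). The 15 pathway genes became 9 to 18 when leaving out 1 tumor, with 9 without tumor 2. With DESeq2, *Tgfbr2* over both clones (adjusted p = 0.0316) and *Tgfb3* between the clones (adjusted p = 0.0181) also passed. The causes were not tested.

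Differences near 0 changed sign: *Tgfb1* between the clones was 0.0012 under upper quartile scaling. Leaving out 1 tumor, it ranged from -0.13 to 0.093, *Tgfbr1* over both clones from -0.0043 to 0.11, *Smad2* over both clones from -0.013 to 0.027 and in clone 18 from -0.081 to 0.00039, *Tgfb2* in clone 4 from -0.043 to 0.14 and *Tgfb3* in clone 18 from -0.012 to 0.15. Leaving out tumors 1, 10 and 13 together, an alternative chosen after seeing the data, moved *Smad2* in clone 18 to 0.0054 and *Tgfb1* between the clones to 0.029. It brought past the threshold *Tgfb1* over both clones (limma adjusted p = 0.0155), in clone 4 (0.0314) and in clone 18 (0.0385), and *Tgfb3* between the clones (0.0413). Calls were lost by *Smad4* over both clones (adjusted p = 0.0906) and in clone 18 (0.132), *Tgfbr2* in clone 18 (0.175) and *Tgfbr1* between the clones (0.119), and among the pathway genes named by rule by *Pmepa1* (0.0911) and *Ldlrad4* (0.0666). No paired analysis was possible because the replicate labels tie no tumor of 1 group to a tumor of another.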
